A study of Mus musculus with 419 samples.

Results

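The enzymes described here attach a polar group to lipids, steroids, bile pigments and foreign compounds: the UDP-glucuronosyltransferases (UGT), the cytosolic and mitochondrial glutathione S-transferases (GST) and the sulfotransferases (SULT). Members were the genes whose symbols begin with Ugt1, Ugt2 or Ugt3, with one of the GST class letters a, m, p, t, o, k or z, or with Sult1 to Sult7 followed by a subfamily letter, provided that their counts summed to at least 100 over all libraries. Within these families the rule used symbols and this minimum, and it kept 61 of 55487 genes: 18 UGT, 22 GST and 21 SULT genes. Counts were summed over all groups, so a gene could meet the minimum through 1 group where it was high. Sult2a6, for example, had 468 counts in Deficient and 16 in Control female livers. Just above the minimum stood Sult2a3 with 113 counts and Sult2a4 with 180, and just below it Ugt1a8 with 27. Ugt2a1 had 1 count and Ugt2a2 had 0, and 3 pseudogenes of the families were left out by name.

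Glucuronidation takes its sugar from UDP-glucuronate, sulfation its sulfate from PAPS, and glutathione transferases use the tripeptide glutathione. The products are more water soluble, are pumped out of the cell by ABC transporters and leave the body in bile or urine, so liver and kidney are the best known sites. The families are also known for handling the body's own molecules, among them bilirubin, bile acids, estrogens, androgens, catecholamines and the aldehydes of oxidised lipids.

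The series models relative energy deficiency in sport in CBA/CaJ mice, in which Deficient (energy-deficient) animals were compared with Control (energy-sufficient) animals of the same sex. The labels give strain, sex, treatment, tissue and zeitgeber time, with collection at ZT17 or ZT05, and do not give the age of the animals or how the deficit was made. Every combination of tissue, sex, treatment and time, 140 in all, had 3 libraries (2 for the tibialis anterior tendon of Control males at ZT05), so that a comparison within a sex set 6 Deficient against 6 Control libraries (5 in that tendon). The 419 libraries cover 19 tissues: liver, kidney, lung, heart, spleen, brown adipose tissue, pituitary, adrenal gland, testis, uterus, ovary, 5 hindlimb muscles and 3 of their tendons.

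Library totals ran from 5777450 to 53598697 counts. Mouse numbers in the labels show 12 females, 12 males numbered among them and 12 males with higher numbers. The lower numbers are called the first cohort here and the higher ones the second. The labels themselves do not name cohorts. Each mouse gave several tissues, so results in different tissues are not independent. In kidney, adrenal gland, extensor digitorum longus (EDL), soleus, tibialis anterior and 2 of the tendons all males were of the second cohort, so there sex and cohort cannot be told apart. Male quadriceps and gastrocnemius each mixed 9 first-cohort and 3 second-cohort libraries, and male gastrocnemius tendon mixed 10 and 2. Male spleen and brown adipose tissue each had 11 and 1. Cohort was not a term of the fits. Mitochondrial and rRNA-like transcripts took more than 50% of the counts in 58 libraries, all of first-cohort males. In male liver their median share was 87.7% in Deficient and 94.1% in Control mice, which left 404879 to 1501138 counts for all other genes in Deficient and 396892 to 1059556 in Control libraries, so low genes were measured less precisely there than in females.

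Levels are given as CPM, counts scaled to a common library size, after mitochondrial and rRNA-like genes were set aside. A gene is called changed when the adjusted p of edgeR's quasi-likelihood F test, fitted over all genes of that tissue and sex, was under 0.05. Log2 fold changes are Deficient over Control unless stated otherwise, with their standard error. That error was derived as the size of the log2 fold change over the square root of the F statistic, so it is approximate.

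In Control mice the families divided sharply by tissue. Among females, 13 members averaged at least 1 CPM in all 18 tissues, and 12 of those were GST genes and the other Sult1a1, a phenol sulfotransferase. No UGT gene was that widespread: 15 of the 18 reached 1 CPM in only 1 to 3 female tissues. Of the 21 SULT genes, 10 did not reach 1 CPM in any female tissue. Males gave 15 members above 1 CPM in all 17 tissues, 13 of them GST genes.

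Liver held the highest Control mean for 34 of 61 members in females and 26 in males, and kidney for 13 in females and 14 in males. With mitochondrial and rRNA-like genes kept in the scaling, male liver was highest for 14 and male kidney for 22. The summed UGT level was 5561 ± 515 CPM in female liver and 2619 ± 207 CPM in female kidney (SD, n = 6), against 2.61 ± 1.06 CPM in female heart. Male liver summed to 1586 ± 177 CPM and male kidney to 4961 ± 678 CPM of UGT transcripts (SD, n = 6). GST transcripts spanned a narrower range, with 6113 ± 648 CPM in female liver, 4228 ± 267 CPM in testis and 1267 ± 108 CPM in female heart. Male heart summed to 29.0 ± 16.3 CPM of UGT transcripts, beside hepatocyte markers at 158, 688 and 1369 CPM in the lowest, median and highest library, and their part in that level was not tested.

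**Figure D1:**
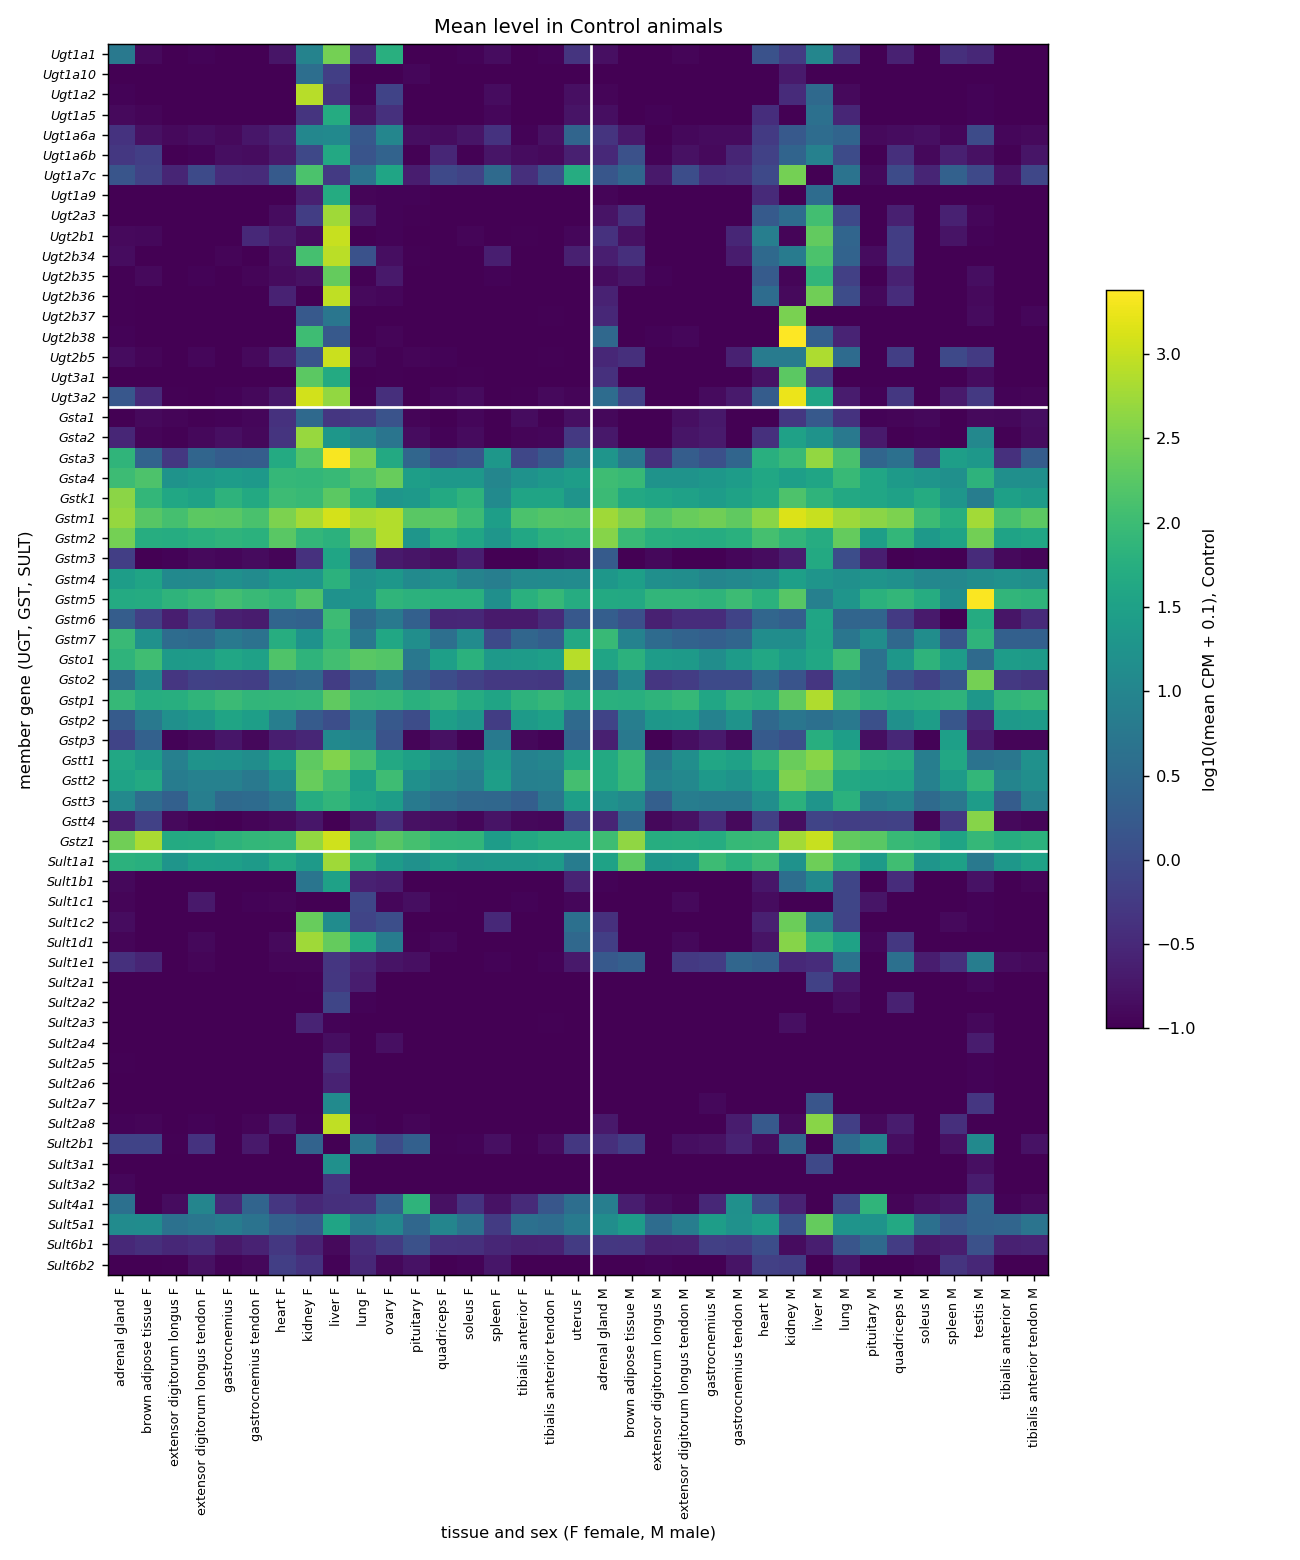
Mean level in Control animals as log10(CPM + 0.1), with the 61 members as rows grouped as UGT, GST and SULT and each tissue and sex as a column (F female, M male). UGT genes are bright almost only in the liver and kidney columns, most GST genes are bright in every column, and testis stands out for Gstm5, Gstt4 and Gsto2.

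Levels of different genes are compared per kilobase of exonic length. In female kidney the leading UGT genes were Ugt3a2 with 394 CPM per kilobase and Ugt1a2 with 368. Male kidney was led by Ugt2b38 with 1264 CPM per kilobase, followed by Ugt3a2 with 564. Ugt2b5 led in both livers, with 575 CPM per kilobase in females and 379 in males. Among GST genes Gstm1, a mu class enzyme, led in liver of both sexes with 861 CPM per kilobase in females and 689 in males. Female kidney had slightly more Gsta2 (437 CPM per kilobase) than Gstm1 (419). Sult1d1, which sulfates catecholamines and other small amines and phenols, led the SULT genes of kidney with 227 CPM per kilobase in females and 153 in males, and Sult1a1 led those of liver.

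The remaining members were highest in other tissues, among them testis for 10 members in males and ovary for 3 in females (1 with TMM over all libraries). Some of these means were near 0. They include Sult2a4, Sult2a5, Sult2a6 and Sult3a2 in testis, at 0.115 CPM or less, and Sult2a4 in ovary at 0.0488 CPM. Testis values so low cannot be ranked against the shallow male livers. Testis averaged 2236 CPM of Gstm5, 378 CPM of Gstt4 and 289 CPM of Gsto2. The neural sulfotransferase Sult4a1 was highest in the pituitary, with 70.7 CPM in females and 73.3 CPM in males. Gsto1, an omega class enzyme that also reduces dehydroascorbate, averaged 794 ± 405 CPM in Control uterus (SD, n = 6).

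Over all tissues, 65 of 453 member and tissue pairs tested in females were called higher in Deficient mice, against a background of 6.78% of all gene and tissue pairs, and 23 were called lower, against 7.27%. The 65 include Sult2a1, Sult2a2 and Sult2a6 in liver, whose place among the members may rest on Deficient females. The 23 became 13 without Deficient ZT05 replicate 2 or Deficient ZT17 replicate 1, and 14 without Deficient ZT17 replicate 3 or Control ZT17 replicate 1. In males 35 of 386 pairs were called higher (background 2.33%) and 13 lower (2.42%). The median log2 fold change of the pairs was 0.14 in females and 0.11 in males.

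Male kidney had the largest number of called members. The UGT1 genes Ugt1a2 and Ugt1a1, almost absent in Control males, rose, as did the glutathione transferase Gsta2. The 2 leading UGT2 genes of the male kidney, Ugt2b38 and Ugt2b37, fell. Of 39 members tested, 15 rose, against 19.4% of all genes tested, and 9 fell, against 18.7%. The median log2 fold change was 0.19 for the members and 0.03 for all genes.

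Ugt1a2 lay at 3.81, 28.9 and 109 CPM (lowest, median and highest library) in Deficient males and at 0, 0.156 and 0.942 CPM in Control males. The groups did not overlap, and the fitted log2 fold change was 7.60 ± 1.28 with an adjusted p of 0.00256. With 3763 counts over the Deficient libraries against 15 over the Control libraries, of which 2 had none, the size of that fold is imprecise. Ugt1a1, the enzyme that conjugates bilirubin, was at 2.22, 6.64 and 21.6 CPM in Deficient and 0.103, 0.518 and 0.733 CPM in Control males. Every Deficient library was above every Control library, with a log2 fold change of 4.11 ± 0.65 (adjusted p = 0.00120). The same Deficient libraries were high for both genes: the highest value of each came from ZT05 replicate 2 and the lowest from ZT17 replicate 1.

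Ugt1a members are read from one locus, chr1:88055388-88220002 (GRCm38, plus strand), in which separate first exons are joined to the same later exons. All 8 counted members share exon 2 at chr1:88215044-88215175. The junctions are shown because their bases differ between Ugt1a2 and Ugt1a1. Each line gives the last bases of exon 1 in lower case and the first bases of the shared exon 2 in capitals, from GENCODE M21 on GRCm38.
Ugt1a1: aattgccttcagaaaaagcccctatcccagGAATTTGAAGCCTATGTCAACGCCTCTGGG
Ugt1a2: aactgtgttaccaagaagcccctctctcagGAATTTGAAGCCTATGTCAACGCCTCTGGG
Ugt1a6a: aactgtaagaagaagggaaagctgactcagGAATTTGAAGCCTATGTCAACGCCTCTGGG
Ugt1a7c: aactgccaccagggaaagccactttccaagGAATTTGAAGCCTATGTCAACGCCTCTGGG
Ugt1a5 has the same 60 bases as Ugt1a2 at this junction, and Ugt1a6b the same as Ugt1a6a. Of the 50-base runs in its first exon Ugt1a2 shares 7.87% with Ugt1a5, and Ugt1a6a shares 47.4% with Ugt1a6b. Over whole transcripts 58.2% of the runs of Ugt1a1 and 63.7% of those of Ugt1a2 occur in another member. How the counting treated reads in shared exons is not given in the sources used here, so the values of single Ugt1a genes are uncertain to that extent.

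Gsta2, an alpha class transferase active on lipid peroxides, was at 98.0, 151 and 206 CPM in Deficient and 10.96, 36.2 and 41.3 CPM in Control males. No libraries overlapped, and the log2 fold change was 2.23 ± 0.28 (adjusted p = 5.07e-04). Its near copy Gsta1 shares reads with it, since 32.9% of the 50-base runs of Gsta2 occur in Gsta1. The pi class gene Gstp3 was at 1.57, 3.62 and 4.43 CPM in Deficient and 0.722, 0.990 and 1.47 CPM in Control males, with a log2 fold change of 1.65 ± 0.29. Smaller rises were called for Ugt1a6a, a phenol glucuronidating enzyme, at 1.14 ± 0.29, and for Sult5a1 at 0.90 ± 0.31. The Ugt1a6a value is uncertain, since 94.2% of its 50-base runs occur in Ugt1a7c, which averaged 283 CPM in Deficient and 287 CPM in Control males, against 3.45 and 1.58 CPM of Ugt1a6a. The call of Sult5a1 was lost in 6 of the 12 fits that left out 1 library. Sult1a1 (0.78 ± 0.13), Gsta3 (0.65 ± 0.12) and Gstm7 (0.52 ± 0.11) also rose.

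Ugt2b38 fell to 390.3, 862 and 1308 CPM in Deficient males, against 1836, 2493 and 2809 CPM in Control males. The log2 fold change was -1.44 ± 0.28 (adjusted p = 0.00335), and no Deficient library reached the lowest Control library. Ugt2b37 was at 67.7, 162 and 225 CPM in Deficient and 275, 314 and 375 CPM in Control males, again without overlap, a log2 fold change of -1.01 ± 0.27. Both belong to the UGT2 cluster at chr5:86889767-87424203 (GRCm38), whose enzymes conjugate steroids among other substrates, and 37.4% of the 50-base runs of Ugt2b38 recur in another member. Gstp2 was at 1.51, 2.63 and 3.71 CPM in Deficient and 4.22, 4.93 and 6.27 CPM in Control males, with a log2 fold change of -0.96 ± 0.22. It may share reads with Gstp1, in which 44.3% of its 50-base runs occur and which averaged 155 CPM in Deficient and 205 CPM in Control males. Gstm4 (-0.67 ± 0.12), Ugt2a3 (-0.68 ± 0.20) and Ugt3a2 (-0.57 ± 0.12) fell as well, and so did Gstm1 (-0.42), Gstp1 (-0.40) and Ugt3a1 (-0.34). The summed UGT level of male kidney was 2726 ± 602 CPM in Deficient and 4961 ± 678 CPM in Control mice (SD, n = 6).

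Markers of the proximal tubule, the kidney segment known for most of this chemistry, moved in the same libraries. Their summed level was 17653, 26893 and 35521 CPM in Deficient and 53715, 74120.3 and 77254 CPM in Control males, and of the 6 markers 4 fell and 1 rose. In females the sum was 7146, 9533 and 12284 CPM in Deficient and 16807, 18245 and 20976 CPM in Control kidneys, with 3 of 6 markers lower. None of the 6 was at 0 in either sex, and their part in the results on kidney was not tested. A summed level follows the most abundant of the markers. In bulk tissue, fewer cells of a type, less RNA per cell and regulation of single marker genes cannot be told apart.

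In female kidney the called changes were smaller. Of 41 members tested 8 rose (background 6.14%) and 2 fell (5.85%), and the median log2 fold change was 0.19 against 0.01 for all genes. Sult1d1 was at 558, 878 and 1799 CPM in Deficient and 333, 563 and 818 CPM in Control females, overlapping ranges with a log2 fold change of 0.82 ± 0.14 (adjusted p = 0.00284). Gstm7 was at 20.9, 24.1 and 35.2 CPM in Deficient and 11.7, 17.5 and 20.1 CPM in Control females, without overlap, at 0.61 ± 0.12 on the log2 scale. Ugt1a1 (0.80 ± 0.22), Sult1a1 (0.77 ± 0.15), Gstt3 (0.44 ± 0.08), Gstt2 (0.37 ± 0.10) and Gstk1 (0.36 ± 0.07) rose too. The other rise was Gstp3 at a level below 1 CPM. The 2 lower members, Ugt2b38 at -0.50 ± 0.15 (adjusted p = 0.0479) and Sult1c2 at -0.41 ± 0.12 (adjusted p = 0.0407), lost their calls with the replicate number as a further term, in a fit of both sexes together, and in 8 and 9 of the 12 fits that left out 1 library. Ugt1a1 was lost in 8 and Gstt2 in 7 of those fits.

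Females and males began from different levels in kidney. Of 40 members tested, 32 differed between Control females and Control males, against 67.4% of all genes. Mean Control levels were 813 CPM in females and 0.249 CPM in males for Ugt1a2, 514 CPM in females and 32.5 CPM in males for Gsta2, and 9.06 CPM in females and 0.471 CPM in males for Ugt1a1. For Ugt2b38 they were 104.5 CPM in females and 2390 CPM in males, and for Ugt2b37 1.55 CPM in females and 320.1 CPM in males. Deficient males stood at 39.3 CPM of Ugt1a2 and 151 CPM of Gsta2 on average, between the Control levels of the sexes.

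A test of the female minus the male response called 8 of 40 members in kidney, against a background of 13.4%. The difference was -7.85 ± 1.15 for Ugt1a2 (SE, adjusted p = 0.000719), -3.33 ± 0.71 for Ugt1a1 and -2.11 ± 0.30 for Gsta2, all more positive in males. It was 1.41 ± 0.40 for Ugt2b37, 0.94 ± 0.29 for Gstp2, 0.64 ± 0.14 for Gstm4, 0.59 ± 0.12 for Gstp1 and 0.38 ± 0.11 for Gstk1, all more negative in males. The difference for Ugt2b38 did not pass. Female kidney libraries were all of the first and male ones all of the second cohort, so for these 8 genes sex and cohort cannot be told apart.

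**Figure D2:**
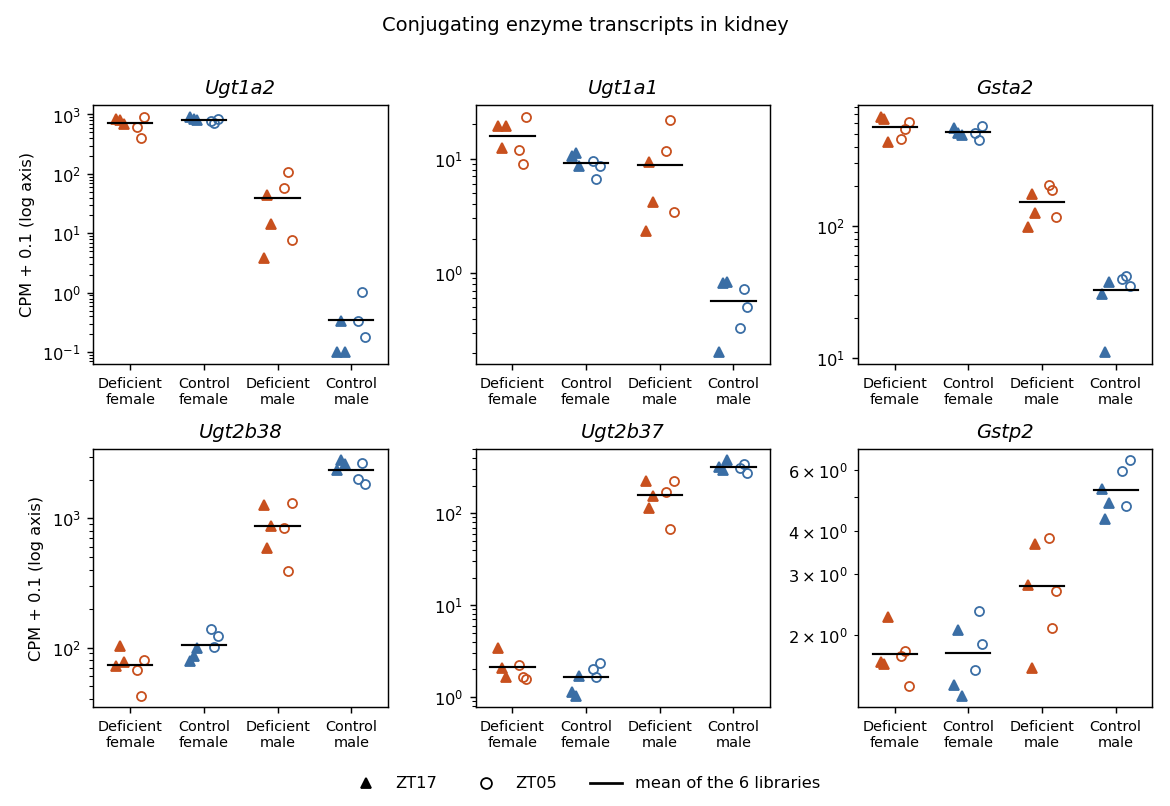
Level of 6 members in each kidney library as CPM + 0.1 on a log axis, with triangles for ZT17, circles for ZT05 and a bar at the mean of 6 libraries. In males Ugt1a2, Ugt1a1 and Gsta2 are higher in every Deficient library and Ugt2b38, Ugt2b37 and Gstp2 lower in every one, while the female groups overlap.

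Promoters are shown for Gsta2 and for the mu class genes Gstm1 and Gstm7, which were called in the most tissues, because the antioxidant and xenobiotic response elements are the textbook control sites of GST genes. Each line runs from 250 bases before to 50 bases after the annotated start (RefSeq, GRCm38.p6), with matches in capitals. Gsta2 is at chr9:78347096-78347395 (minus strand), Gstm1 at chr3:108017769-108018068 (minus strand) and Gstm7 at chr3:107931565-107931864 (minus strand). The capitals mark the xenobiotic response element core GCGTG in Gsta2 and Gstm1, and a match to the antioxidant response element core TGACNNNGC in Gstm7.
Gsta2: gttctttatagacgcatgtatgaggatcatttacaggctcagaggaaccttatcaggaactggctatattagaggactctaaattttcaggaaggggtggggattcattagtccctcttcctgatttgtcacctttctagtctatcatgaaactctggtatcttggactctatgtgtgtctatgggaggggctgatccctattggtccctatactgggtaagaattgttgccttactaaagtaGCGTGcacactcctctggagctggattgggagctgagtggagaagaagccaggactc
Gstm1: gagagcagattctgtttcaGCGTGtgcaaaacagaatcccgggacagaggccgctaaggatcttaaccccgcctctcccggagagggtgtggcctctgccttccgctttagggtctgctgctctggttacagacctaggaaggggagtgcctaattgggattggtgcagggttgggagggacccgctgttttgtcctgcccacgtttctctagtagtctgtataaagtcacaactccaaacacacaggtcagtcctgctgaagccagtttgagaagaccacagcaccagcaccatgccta
Gstm7: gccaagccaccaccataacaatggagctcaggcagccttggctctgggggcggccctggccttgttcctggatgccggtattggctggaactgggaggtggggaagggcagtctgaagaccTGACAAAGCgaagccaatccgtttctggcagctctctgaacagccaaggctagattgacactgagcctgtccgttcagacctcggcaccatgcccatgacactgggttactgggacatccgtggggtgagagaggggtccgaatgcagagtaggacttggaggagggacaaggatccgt
Both strands were searched. GCGTG occurred in 10 of the 53 members with a promoter in the RefSeq table (18.9%), against 32.4% of all 32851 promoters. TGACNNNGC occurred in 3 of 53 (5.66%), namely Gsta3, Gstm5 and Gstm7, against 12.4% of all. Members were counted by gene and the whole set by promoter, so these shares differ in unit. The windows of Ugt1a2, Ugt2b38 and Sult1a1 held none of these letters. A match is a description of the sequence only.

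In female liver the sulfotransferases changed in both directions. Sult2a1, Sult2a2 and Sult2a6, hydroxysteroid and bile acid sulfotransferases, were called higher in Deficient females, as was the estrogen sulfotransferase Sult1e1, all from Control levels of at most 2.33 CPM. Sult2a8, which sulfates bile acids, and Sult5a1 fell, together with Ugt2b1 and Ugt2b5. Of 55 members tested 11 rose (background 6.45%) and 9 fell (7.49%), and the median log2 fold change was 0.18 against 0.00 for all genes. The 11 include Sult2a1, Sult2a2 and Sult2a6. Their liver counts came mostly from Deficient females, so their place among the members may rest on that group.

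In single libraries Sult2a1 was at 34.4, 2.02 and 10.6 CPM in Deficient females at ZT17 and 0.230, 8.27 and 38.4 CPM at ZT05. The 6 Control libraries ran from 0 to 0.919 CPM. 1 Deficient library was as low as the Controls and 2 were above 30 CPM. The fitted log2 fold change was 5.30 ± 1.33 (adjusted p = 0.0333), from 1570 counts in Deficient and 43 in Control females. Sult2a2 was at 0.322, 12.7 and 68.5 CPM in Deficient and 0, 0.428 and 2.33 CPM in Control females, a log2 fold change of 5.12 ± 1.43 (adjusted p = 0.0492). Sult2a6 was at 0.0460, 2.25 and 11.6 CPM in Deficient and 0, 0.182 and 0.317 CPM in Control females, a log2 fold change of 4.88 ± 1.35 (adjusted p = 0.0464). The same 2 Deficient libraries, ZT05 replicate 3 and ZT17 replicate 1, were highest for each. The 3 genes lie in one cluster, chr7:13623967-14494230 (GRCm38), and 62.1% of the 50-base runs of Sult2a2 recur in another member, against 33.2% for Sult2a1 and 6.63% for Sult2a6. All 3 calls were lost with the replicate number as a further term, and each was lost in 10 of the 12 fits that left out 1 library, with adjusted p up to 0.0746 for Sult2a1 and 0.101 for Sult2a2.

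Sult1e1, which inactivates estrogens, was at 0.933, 1.97 and 7.42 CPM in Deficient and 0, 0.384 and 0.899 CPM in Control females. The groups did not overlap, and the log2 fold change was 3.17 ± 0.48 (adjusted p = 8.49e-04). Sult1d1 was at 324, 388 and 506 CPM in Deficient and 168, 205 and 289 CPM in Control females, likewise without overlap, at 0.85 ± 0.10. The theta class gene Gstt3 was at 115, 130.1 and 152 CPM in Deficient and 43.1, 80.0 and 100.2 CPM in Control females, a log2 fold change of 0.83 ± 0.13 with no overlap. Gsta2 (1.03 ± 0.16), Sult1a1 (0.68 ± 0.14), Ugt1a9 (0.59 ± 0.13), Gstm1 (0.50 ± 0.11) and Ugt1a1 (0.46 ± 0.11) rose less.

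Sult5a1 fell to 3.67, 8.28 and 14.1 CPM in Deficient females, against 23.8, 36.6 and 49.5 CPM in Control females, a log2 fold change of -2.08 ± 0.32 (adjusted p = 0.00275). Sult2a8 fell to 66.2, 264 and 335 CPM in Deficient females, against 668, 924 and 1024 CPM in Control females, at -1.83 ± 0.33. Ugt2b1 fell to 332, 432 and 546 CPM in Deficient females, against 805, 943 and 1439.7 CPM in Control females, at -1.19 ± 0.15. In each of these genes every Deficient library was below every Control library. Ugt2b37 (-1.07 ± 0.27), Ugt2b5 (-0.50 ± 0.12), Ugt1a5 (-0.40 ± 0.12), Gstk1 (-0.38 ± 0.10) and Gstt1 (-0.24 ± 0.08) fell with overlapping groups. Ugt2b38 was also called lower, with 6 counts in Deficient against 167 in Control females. Hepatocyte markers summed to 175538, 180173 and 240011 CPM in Deficient and 151641, 191066 and 220514 CPM in Control females, with 0 of 6 higher and 1 lower. The count of rises was 19 without the library Deficient ZT17 replicate 2, the count of falls was 5 without Control ZT17 replicate 1, and the call of Ugt1a5 was lost in 9 and of Ugt2b37 in 2 of 12 such fits.

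In male liver 36 members were deep enough to test, of which 3 rose and 2 fell, against 2.06% of all genes in each direction. Gstt3 was at 39.3, 62.0 and 86.2 CPM in Deficient and 7.17, 21.9 and 25.4 CPM in Control males. Without overlap, its log2 fold change was 1.74 ± 0.29 (adjusted p = 3.86e-04). Sult1a1 (1.07 ± 0.22) and Sult1d1 (0.87 ± 0.22) rose as well. Ugt2b1 fell to 68.2, 90.8 and 114 CPM in Deficient males, against 181, 191 and 330.2 CPM in Control males, at -1.25 ± 0.21 (adjusted p = 3.86e-04). Ugt2b5 fell at -0.81 ± 0.20. Sult2a8 was at 26.0, 165 and 246 CPM in Deficient and 339, 373 and 528 CPM in Control males, groups that did not overlap, but its log2 fold change of -1.48 ± 0.43 did not pass (adjusted p = 0.0949). Sult1e1, Sult2a1, Sult2a2 and Sult2a6 were below the expression minimum in male liver and were not tested there. Sult1d1 lost its call in 4 of 12 fits without 1 library. There were 5 rises without Deficient ZT17 replicate 3, and 4 falls without either Deficient ZT17 replicate 1 or Control ZT05 replicate 1.

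Between the sexes, 37 of 51 members differed in Control livers (background 59.1%). The female minus male difference of the response passed for 0 of 51 members by edgeR's quasi-likelihood test, against 0.74% of all genes, with 6 at an unadjusted p under 0.05 and 3 called by DESeq2. The male liver libraries were of the first cohort, and they were shallow. Mitochondrial and rRNA-like transcripts took a median of 5.93% of the counts in Control female and 94.1% in Control male livers. Sex and this difference between libraries cannot be told apart in liver.

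**Figure D3:**
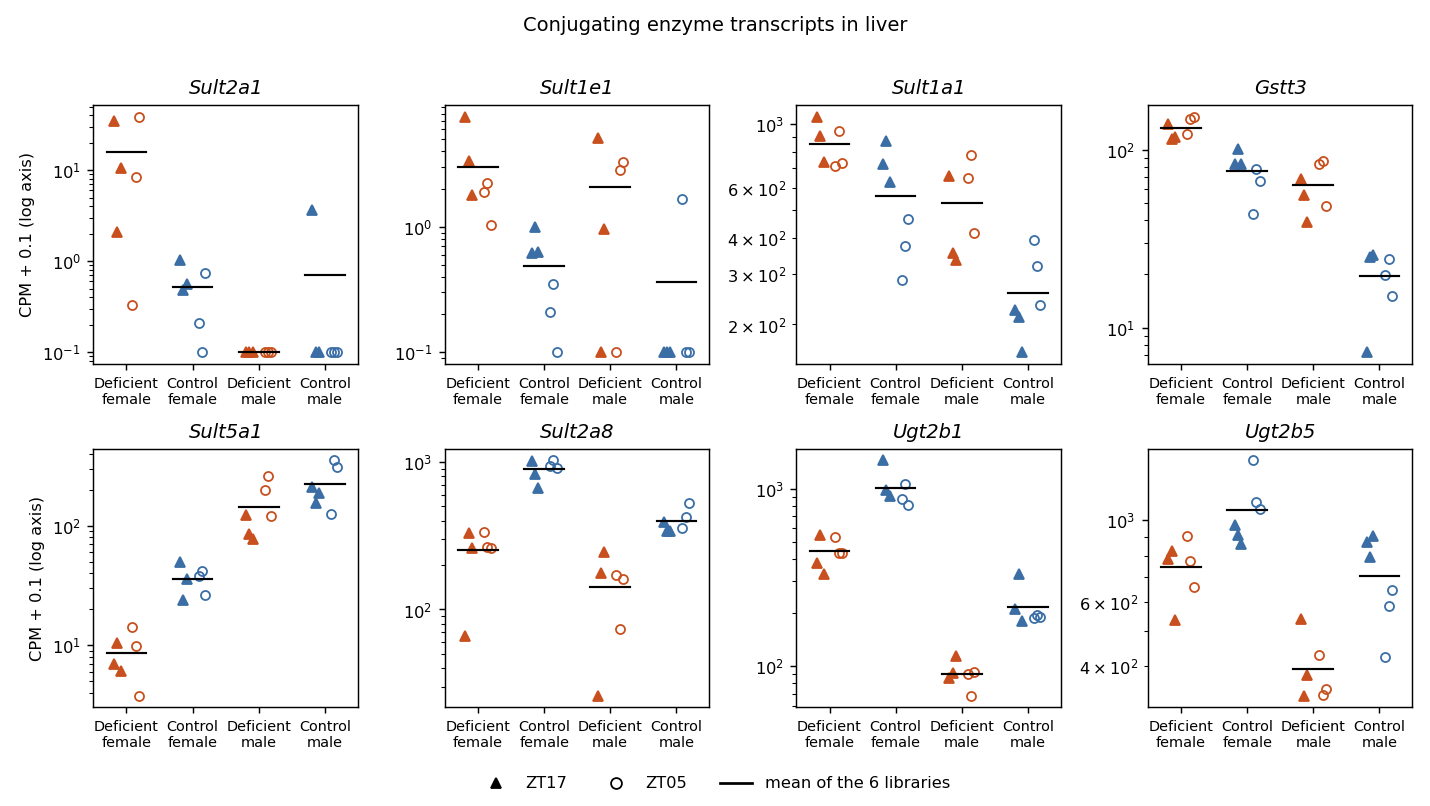
Level of 8 members in each liver library as CPM + 0.1 on a log axis, with triangles for ZT17, circles for ZT05 and a bar at the mean of 6 libraries. Ugt2b1 and Sult2a8 are lower in every Deficient library of both sexes, and Sult2a1 is spread over Deficient females, with 1 library at the Control level.

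Uterus had the highest share of all genes called of any tissue and sex. There 7 of 31 members tested rose (background 20.9%) and 6 fell (24.1%), with a median of 0.11 against -0.03 for all genes. Ugt2b34 was at 0.239, 7.59 and 12.2 CPM in Deficient and 0, 0.112 and 0.323 CPM in Control females. The log2 fold change was 5.55 ± 0.92 (adjusted p = 8.54e-04) from 744 Deficient and 15 Control counts, and 1 Deficient library lay within the Control range. Sult1d1 was at 3.78, 85.4 and 102 CPM in Deficient and 0.400, 2.72 and 5.04 CPM in Control females, at 4.60 ± 0.68. The low Deficient library was the same, ZT05 replicate 1. Gstm1 was at 275, 412 and 484 CPM in Deficient and 72.4, 169 and 243 CPM in Control females, with no overlap, at 1.33 ± 0.27. Gstm6 (2.18 ± 0.59), Sult1a1 (1.28 ± 0.25), Gstm2 (0.65 ± 0.13) and Gstz1 (0.56 ± 0.11), the maleylacetoacetate isomerase of tyrosine breakdown, rose too.

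Gsto1 in uterus fell to 153, 201 and 379.6 CPM in Deficient females, against 220.0, 910.3 and 1162 CPM in Control females, with overlapping groups and a log2 fold change of -1.72 ± 0.36 (adjusted p = 0.00291). Ugt1a7c was at 6.30, 13.4 and 20.4 CPM in Deficient and 9.78, 37.6 and 121 CPM in Control females, at -2.08 ± 0.51. Sult4a1 (-1.65 ± 0.43), Gstp3 (-1.44 ± 0.44), Gsto2 (-1.18 ± 0.43) and Gstt2 (-0.79 ± 0.24) fell. The call of Gsto2 was lost in 8 of 12 fits without 1 library. Markers of uterine and oviduct epithelium summed to 129, 293 and 1739 CPM in Deficient and 2829, 10211 and 18362 CPM in Control uteri, 1 of 5 higher and 2 lower, with none at 0. A summed level follows the most abundant markers, so it does not measure the amount of epithelium. The part of these markers in the uterine results was not tested.

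Sult1a1 was the member called in the most tissues. Among females it rose in 11 of 18 tissues and among males in 8 of 17, and it fell in none, and its log2 fold change was positive in all 18 and all 17. The median log2 fold change was 0.75 in females and 0.74 in males. Called values ran from 0.59 in lung to 1.28 in uterus among females and from 0.63 in EDL to 1.71 in spleen among males. The tissues of a mouse were not independent, so these counts are no test over tissues. In male quadriceps, a tissue of mixed cohorts, Control libraries ran from 19.8 to 177 CPM of Sult1a1. Control libraries of male gastrocnemius, also mixed, ran from 20.5 to 158 CPM. The part of cohort in the values of these muscles was not tested. With both sexes in one fit the female calls in gastrocnemius tendon, lung, quadriceps and spleen were lost.

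In heart, where 7.02% of all genes rose in females, Sult1a1 was at 52.4, 89.0 and 119 CPM in Deficient and 35.3, 42.8 and 54.1 CPM in Control females, just overlapping, at 1.03 ± 0.16. Male hearts had 177, 249 and 349 CPM in Deficient and 80.2, 103 and 113 CPM in Control mice, without overlap, at 1.31 ± 0.17 (adjusted p = 0.00395), where 0.188% of all genes rose. In male spleen, where 0.0149% of all genes rose, it was at 48.6, 101 and 146 CPM in Deficient and 20.7, 29.4 and 54.7 CPM in Control mice, at 1.71 ± 0.28 (adjusted p = 0.0277). The call was lost in 9 of 12 fits without 1 library. Without the spleen library of the second cohort, Control ZT05 replicate 3, the log2 fold change was 1.59 and the adjusted p 0.101. Male adrenal gland had 45.1, 49.8 and 65.2 CPM in Deficient and 24.2, 33.3 and 39.8 CPM in Control mice, at 0.68 ± 0.12.

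The mu class genes of the cluster at chr3:107895821-108044894 (GRCm38) came next. Gstm1 rose in 10 of 18 female tissues; in males it rose in 3 of 17 and fell in kidney. Gstm7 rose in 7 of 18 tissues of females and 3 of 16 of males, and Gstm2 in 5 of 18 of females and 3 of 17 of males. Median log2 fold changes over female tissues were 0.31 for Gstm1, 0.46 for Gstm7 and 0.26 for Gstm2.

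Limb muscle carried several of those calls. In female tibialis anterior 7 of 17 members tested rose (background 16.6%) and 1 fell (15.9%), and in male tibialis anterior 6 rose (4.43%) and 0 fell (4.1%). Gstm7 was at 3.84, 6.07 and 6.39 CPM in Deficient and 2.48, 2.60 and 2.83 CPM in Control females, without overlap, at 1.06 ± 0.12. Deficient males had 2.87, 4.41 and 5.96 CPM and Control males 1.56, 2.07 and 2.93 CPM, at 1.01 ± 0.18, with 1 Deficient library inside the Control range. Gstm2 was at 57.4, 61.9 and 88.2 CPM in Deficient and 26.4, 34.7 and 40.6 CPM in Control males, far apart, at 0.95 ± 0.13 (adjusted p = 7.16e-04). In EDL, Gstm1, Gstm2, Gstm7 and Sult1a1 rose in both sexes. There 6 of 18 members rose in females (16.1%) and 4 of 16 in males (5.34%), while Gstz1 fell in both (background 14.3% in females and 6.11% in males), at -0.19 ± 0.06 in females and -0.24 ± 0.07 in males. Leaving out 1 library ended the Gstz1 call in 6 of 12 fits in females and 10 of 12 in males, and in male EDL that of Gstm1 in 7 and of Gstm7 in 4.

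**Figure D4:**
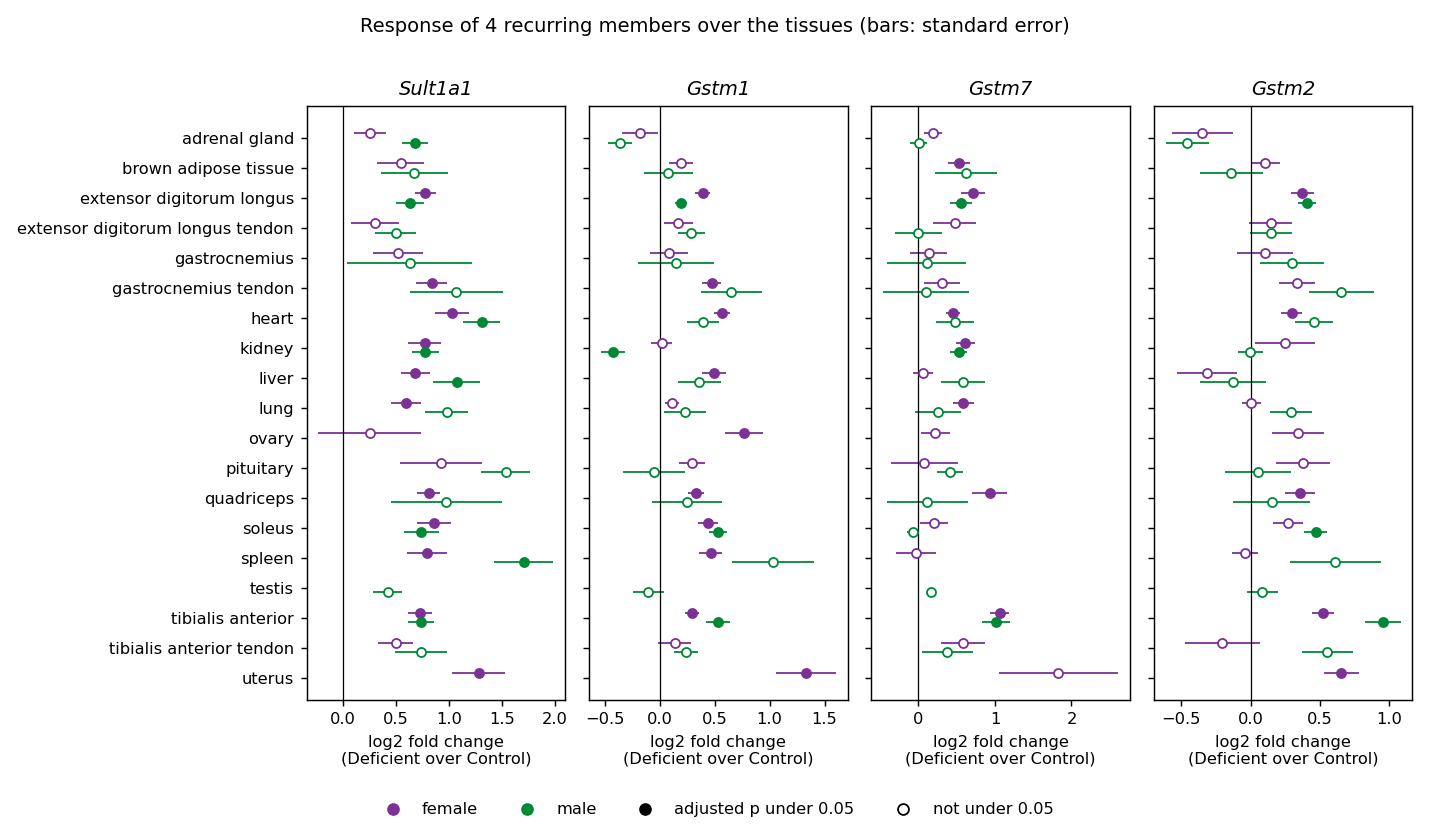
Log2 fold change of Deficient over Control for Sult1a1, Gstm1, Gstm7 and Gstm2 in each tissue, females purple and males green, filled where the adjusted p was under 0.05, with standard error bars. Every Sult1a1 point lies right of 0, and Gstm1 is left of 0 and filled only in male kidney.

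Other tissues held few called members. Brown adipose tissue of females had 3 of 21 higher (4.59%) and 0 lower (3.34%). There Gstt4 was at 2.02, 2.24 and 3.65 CPM in Deficient and 0.189, 0.648 and 0.937 CPM in Control mice, without overlap, at 1.97 ± 0.32 (adjusted p = 0.00314). Gstk1, an enzyme of mitochondria and peroxisomes, was at 98.3, 109 and 127 CPM in Deficient and 65.4, 78.0 and 92.3 CPM in Control females, also without overlap. Both calls, and that of Gstt1 in lung below, were lost with both sexes in one fit. Female pituitary had 2 of 22 higher (1.5%): Sult5a1, at 5.92, 9.13 and 18.8 CPM in Deficient and 1.65, 2.43 and 4.64 CPM in Control mice, changed by 1.84 ± 0.27, and Gstt2 by 0.58 ± 0.14. Those calls were lost in 3 and 9 of 12 fits without 1 library. Female lung had 2 of 33 higher (3.24%) and 1 lower (4.86%), the lower one being Gstt1 with 76.3, 95.7 and 109.8 CPM in Deficient and 111, 122 and 146 CPM in Control mice, at -0.39 ± 0.07.

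In female spleen 2 of 20 members rose (5.37%) and 1 fell (5.98%). The fall was in Gstm5, at 4.75, 5.74 and 6.79 CPM in Deficient and 7.20, 12.7 and 26.1 CPM in Control mice, groups that did not overlap, at -1.36 ± 0.34, a call lost in 7 of 12 fits without 1 library. Male adrenal gland had 2 of 28 higher (0.982%), Sult1a1 and Gstz1. Gstz1 was at 131, 185 and 224 CPM in Deficient and 91.5, 107 and 109 CPM in Control males, without overlap, and its female minus male difference of response was -1.05 ± 0.19 (SE, adjusted p = 0.00564), where 1.82% of all genes passed, and sex and cohort cannot be told apart.

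Ovary had 3 of 32 members higher (4.51%) and 2 lower (5.51%). Ugt1a6b was at 3.61, 5.86 and 8.33 CPM in Deficient and 1.75, 2.11 and 3.87 CPM in Control mice, at 1.26 ± 0.27. Sult1d1 rose by 1.67 ± 0.43 and Gstm1 by 0.77 ± 0.17, while Gstm6 changed by -1.46 ± 0.35 and Sult5a1 by -0.64 ± 0.17, all with overlapping groups. Each of these 5 calls was lost in 7 to 11 of the 12 fits without 1 library. The ovary libraries held markers of oviduct and uterine epithelium at 5840.2, 9733 and 14135 CPM in Deficient and 1446, 13831 and 20311 CPM in Control mice, and markers of granulosa and theca cells at 1.95, 3.49 and 128 CPM in Deficient and 3.78, 65.4 and 1369 CPM in Control mice. None of the 5 markers of either list was at 0, and their part in the ovarian results was not tested.

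Male heart had 1 of 23 members higher, Sult1a1, and 1 lower (0.174%), Ugt2b1. Ugt2b1 was at 0, 0.381 and 6.27 CPM in Deficient and 1.28, 6.32 and 13.0 CPM in Control males, overlapping, at -4.20 ± 0.77 (adjusted p = 0.0327), and the call was lost in 8 of the 12 fits without 1 library. Hepatocyte markers in the same hearts summed to 91.7, 234 and 1197 CPM in Deficient and 158, 688 and 1369 CPM in Control mice, with none of 6 at 0, and their part in the result was not tested. Testis had 0 of 27 members called by edgeR's quasi-likelihood test (background 0.0289%), with 5 at an unadjusted p under 0.05.

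The time of collection was the second labelled factor. In Deficient females 12 of 453 member and tissue pairs differed between ZT17 and ZT05, 4 higher (1.3% of all pairs) and 8 lower (1.2%) at ZT17. The 12 became 6 without Deficient ZT17 replicate 1, 7 without Deficient ZT05 replicate 2, 6 with both sexes in one fit, 22 with no filter and 29 by DESeq2. Control females had 35, of which 17 were higher (2.25%) and 18 lower (2.43%), and the 35 became 20 without Control ZT17 replicate 2 and 21 with both sexes in one fit. Deficient males had 0 of 386 pairs called by edgeR's quasi-likelihood test, against 0.254% of all gene and tissue pairs, with 41 at an unadjusted p under 0.05 and 7 called by DESeq2. Control males had 0 higher (0.798%) and 6 lower (0.652%), and the total became 11 without Control ZT17 replicate 1, 13 by DESeq2, 15 with both sexes in one fit and 23 with no filter. Each comparison here set 3 libraries against 3, or 2 in the Control male tendon.

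Gstt2, a theta class transferase, was the member called most often, and it was lower at ZT17 in limb muscle. In tibialis anterior of Deficient females it was at 5.53, 4.61 and 7.59 CPM at ZT17 and 15.3, 14.3 and 11.5 CPM at ZT05. Control females had 4.90, 3.92 and 4.53 CPM at ZT17 and 11.1, 12.9 and 10.2 CPM at ZT05. No libraries overlapped between the times, and log2 differences (ZT17 over ZT05) were -1.23 ± 0.18 in Deficient and -1.37 ± 0.18 in Control females. Control males had 4.25, 2.58 and 4.43 CPM at ZT17 and 14.2, 14.8 and 15.7 CPM at ZT05, a log2 difference of -1.96 ± 0.21 (adjusted p = 7.56e-04). Over all tissues Gstt2 was called lower at ZT17 in 5 tissues of Deficient females, 6 tissues of Control females and 4 tissues of Control males, and higher in 1, brown adipose tissue of Control females at 0.84 ± 0.19.

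Soleus and EDL gave like values. In soleus the log2 difference of Gstt2 was -1.68 ± 0.23 in Control females and -1.52 ± 0.27 in Control males, and in EDL of Control males -1.46 ± 0.24. Liver of Control males had 120.1, 95.0 and 124 CPM at ZT17 and 377, 248 and 305 CPM at ZT05, at -1.45 ± 0.29. In female kidney it was -0.72 ± 0.14 in Deficient and -0.64 ± 0.14 in Control mice. The calls in Control female kidney, Deficient female kidney and soleus and Deficient female EDL were lost in 2 to 6 of 12 fits without 1 library. A difference of the Gstt2 response between the times was called in 0 tissues of either sex by edgeR's quasi-likelihood test.

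**Figure D5:**
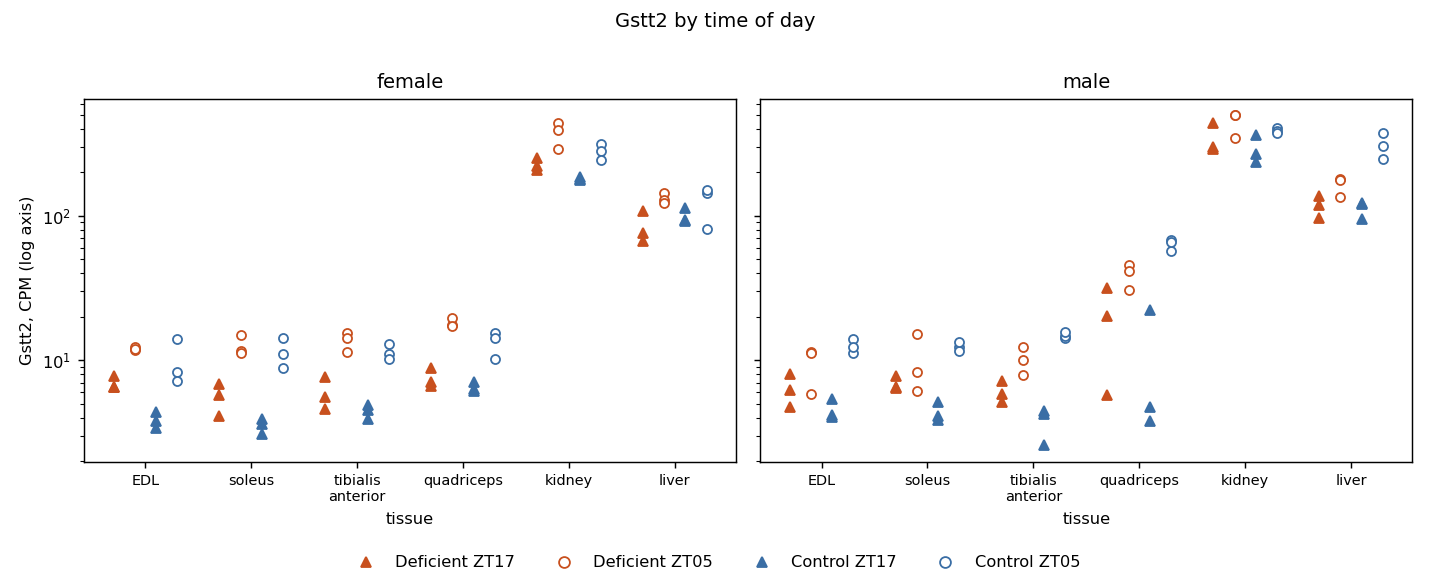
Gstt2 in each library of 6 tissues as CPM on a log axis, females left and males right, with triangles for ZT17 and open circles for ZT05 in Deficient (orange) and Control (blue) mice. In tibialis anterior all ZT17 triangles lie below all ZT05 circles in both treatments of both sexes, although the difference in Deficient males was not called.

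Gsta3 and Sult1a1 were higher at ZT17 in several tissues of Control females. Gsta3 was at 82.6, 71.1 and 66.4 CPM at ZT17 and 24.5, 22.0 and 19.9 CPM at ZT05 in heart, a log2 difference of 1.72 ± 0.22 (adjusted p = 0.00166). In lung it was at 438, 428 and 403 CPM at ZT17 and 206, 197 and 193 CPM at ZT05, at 1.09 ± 0.10. Sult1a1 was called higher at ZT17 in 5 tissues, among them brown adipose tissue (1.61 ± 0.32), liver (0.98 ± 0.19) and kidney (0.94 ± 0.22), where the call was lost in 5 of 12 fits without 1 library. In brown adipose tissue it was at 68.4, 95.7 and 96.0 CPM at ZT17 and 22.1, 28.9 and 34.4 CPM at ZT05 in Control females.

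Deficient female livers had 0 of 55 members higher (4.17%) and 2 lower (3.22%) at ZT17, Sult1c2 at -0.63 ± 0.18 and Sult1b1, which sulfates thyroid hormone, at -0.57 ± 0.16. Control female livers had 6 higher (9.07%) and 5 lower (9.49%). In Control females Sult1c2 was at 9.19, 8.41 and 6.57 CPM at ZT17 and 20.3, 19.4 and 15.7 CPM at ZT05, at -1.20 ± 0.19. Ugt2b35 (-0.93 ± 0.13), Sult1b1 (-0.83 ± 0.17) and Gstm4 (-0.71 ± 0.16) were lower at ZT17 as well. Both Deficient calls were lost in 9 of the 12 fits without 1 library, with adjusted p up to 0.186. In female kidney Sult1d1 was higher at ZT17 in both treatments, by 1.12 ± 0.20 in Deficient and 0.84 ± 0.20 in Control mice.

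A difference of the response between ZT17 and ZT05 was called for 3 of 453 pairs in females and 3 of 386 in males (0.715% and 0.784% of all pairs). These counts became 14 in females and 7 in males by DESeq2, 16 in each with no filter, 1 in females and 10 in males with both sexes in one fit, and 0 to 4 in each without 1 library. In female lung it was -0.63 ± 0.14 for Gsta3 and 1.18 ± 0.24 for Gstp3, and in female kidney 0.76 ± 0.16 for Gstm4. In brown adipose tissue of males it was -3.62 ± 1.13 for Gsta3, -1.91 ± 0.63 for Sult1a1 and -1.44 ± 0.45 for Gstm1. Without the 1 second-cohort library in that tissue the values were -3.01, -1.44 and -1.24, with adjusted p of 0.0363, 0.0178 and 0.0479 in the same order. All 6 of these calls were lost in at least 7 of 12 fits that left out 1 library.

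Genes that supply or follow conjugation were read from lists, which were chosen with earlier results of these data known. The share called in a list is therefore a description and no independent test against the background. Of the ABC efflux transporters of conjugates, 8 of 9 rose in male kidney and 0 fell (background 19.4% higher and 18.7% lower), with a median log2 fold change of 0.63 against 0.03 for all genes. Abcb1b averaged 31.1 ± 5.53 CPM in Deficient and 7.63 ± 1.94 CPM in Control males (SD, n = 6), at 2.02 ± 0.17. Abcb1a (1.78 ± 0.15) and Abcc4 (1.17 ± 0.13), which exports glucuronides and sulfates, rose too. In female kidney 1 of 9 rose and 1 fell (background 6.14% and 5.85%). In female liver 4 rose and 1 fell (6.45% and 7.49%), led by Abcc4 (1.76 ± 0.37). In uterus 7 of 8 rose and 0 fell (20.9% and 24.1%).

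Of the genes of glutathione synthesis and turnover, 1 of 14 rose and 6 fell in male kidney (background 19.4% and 18.7%), and 0 of 15 rose and 5 fell in female kidney (6.14% and 5.85%), with a median log2 fold change of -0.24 in each sex. Ggt1, which starts the breakdown of glutathione conjugates at the tubule surface, changed by -0.92 ± 0.12 in males and -0.31 ± 0.08 in females, and Gss, the last step of glutathione synthesis, by -0.84 ± 0.12 in males and -0.41 ± 0.08 in females. NRF2 target genes outside the families were called both ways, with 5 of 17 higher and 7 lower in male kidney (background 19.4% and 18.7%) and 2 of 16 higher and 3 lower in female liver (6.45% and 7.49%). Nqo1, an NRF2 target, rose by 0.72 ± 0.11 in female liver and 0.71 ± 0.08 in female kidney, while Me1, the malic enzyme, changed by -1.11 ± 0.15 in female liver on the log2 scale. In male kidney the enzyme that removes glucuronides, Gusb, averaged 29.99 ± 3.88 CPM in Deficient and 207 ± 168 CPM in Control males (SD, n = 6), at -2.71 ± 0.42.

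For the donors, 1 of 5 genes of UDP-glucuronate supply rose and 2 fell in female liver (background 6.45% and 7.49%), where Ugp2, which makes UDP-glucose, changed by 0.68 ± 0.10. Of 7 PAPS and sulfate genes 0 rose and 2 fell there, including the sulfate transporter Slc26a1 at -0.52 ± 0.11. In uterus Slc26a1 averaged 0.242 ± 0.445 CPM in Deficient and 12.9 ± 8.47 CPM in Control mice (SD, n = 6). Among xenobiotic receptors, Nr1i3 (CAR) rose in liver by 0.83 ± 0.13 in females and 0.84 ± 0.24 in males. A list of phase I genes controlled by such receptors also held Cyp4a14, of the peroxisome proliferator pathway. In female liver 6 of 16 listed genes were higher and 2 lower (background 6.45% and 7.49%). In male liver 6 of 11 were higher and 1 lower (2.06% each way). Medians were 0.67 in females and 1.21 in males against 0.00 and 0.07 for all genes. The part of any receptor in these results was not tested. Cyp2b10, a CAR target, averaged 60.0 ± 31.0 CPM in Deficient and 7.27 ± 6.25 CPM in Control males (SD, n = 6), at 3.06 ± 0.38 (adjusted p = 7.5e-06).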

How the data were processed

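Whole-tissue RNA was extracted with TRIzol and made into poly(A)-selected TruSeq Stranded mRNA libraries from 500 ng of RNA, per the labels' protocols. The authors deposited raw counts per gene. Per the submitters' processing notes reads were handled on the build GRCm38 (mm10) with STAR 2.7.10a, and the other tools named are cutadapt 4.1, FastQC 0.11.9 and DESeq2 1.34.0. The counting tool, its strand setting and the annotation release are not given in the sources used here. The authors' deposited normalized values were not used, and 0 sample columns were left unmapped.

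Mitochondrial and rRNA-like genes (39 in all) were set aside, since their share differed widely between libraries, and CPM was computed on the TMM-scaled remainder. Each tissue and sex was fitted alone over all genes passing filterByExpr (minimum count 10, minimum total 15) with edgeR 4.0.16 in R 4.3.3, using the quasi-likelihood F test with Benjamini-Hochberg adjustment. The response is the mean of the Deficient minus Control differences at ZT17 and ZT05. Contrasts between females and males came from a single fit of both sexes. Intervals and p-values measure the spread between separate mice, by the mouse numbers in the labels. No 2 libraries of a group agreed within sampling noise: over 418 pairs the smallest chi-square per degree of freedom was 3.29. Same-numbered replicates were not treated as pairs (mean residual correlation -0.105 to 0.219 by tissue and sex).

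Named were up to 6 called members per direction, tissue and sex with a mean of at least 1 CPM, the highest per kilobase in liver and kidney (up to 5 per family), up to 5 recurring members per direction, up to 4 time differences per tissue, and up to 4 called genes per list. The members (as gene families) and the lists were chosen with earlier results of these data known. Alternatives were DESeq2 size factors, DESeq2 1.42.0, no filter, a stricter filter (5 CPM in 3 libraries), a replicate block, both sexes in 1 fit, mitochondrial and rRNA-like genes kept, TMM over all libraries for levels, and each library left out. The scripts were tested on simulated data.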

Additional observations from a re-analysis of the deposited data

Results flagged for a closer look

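A value was singled out where 1 library of a 6-library group of Deficient or Control mice lay apart from the other libraries, by a gap of more than 0.625 of the group's range, Dixon's 95% limit for 6 samples. Of 224 groups tested 20 passed, and chance alone gives about 1 in 20 groups.

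Among Deficient groups the highest library was the one apart for Gstt4 in female brown adipose tissue (3.65 CPM), Ugt2b1 in male heart (6.27 CPM), Sult1e1 in female liver (7.42 CPM), Gstm6 in ovary (4.20 CPM), Sult1a1 in male soleus (52.1 CPM) and Gstm1 in female spleen (50.9 CPM). In male tibialis anterior 1 Deficient library, ZT05 replicate 1, was apart for 3 genes, with 244 CPM of Gstm1, 66.3 CPM of Gstk1 and 120.3 CPM of Gstm5. The lowest library was apart for Sult2a8 in Deficient female liver (66.2 CPM) and Gstm1 in Deficient ovary (913 CPM). The ovary library was ZT05 replicate 3, which also gave the Gstm6 value, and the liver library was ZT17 replicate 1, which also gave the Sult1e1 value.

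Among Control groups the highest library was apart for Gstz1 in male EDL (61.3 CPM), Ugt1a2 in male kidney (0.942 CPM), Ugt2b1 in male liver (330.2 CPM), Sult1a1 in female quadriceps (34.9 CPM) and male spleen (54.7 CPM), and Sult4a1 (7.26 CPM) and Gsto2 (10.8 CPM) in uterus. The lowest Control library was apart for Gstm7 in female heart (46.9 CPM) and Gsta2 in male kidney (10.96 CPM).

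Tests of a difference between 2 responses passed for 15 values. The female minus male response was -1.05 for Gstz1 in adrenal gland, and in kidney -7.85 for Ugt1a2, -3.33 for Ugt1a1, -2.11 for Gsta2, 0.38 for Gstk1, 0.59 for Gstp1, 0.64 for Gstm4, 0.94 for Gstp2 and 1.41 for Ugt2b37. In both tissues sex and cohort cannot be told apart. The ZT17 response minus the ZT05 response was -3.62 for Gsta3, -1.91 for Sult1a1 and -1.44 for Gstm1 in male brown adipose tissue, 0.76 for Gstm4 in female kidney, and -0.63 for Gsta3 and 1.18 for Gstp3 in female lung.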

How the results depend on the processing

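Of 112 named calls of Deficient against Control, 77 passed under every alternative that could be run, 74 in every fit that left out 1 library, and 62 in all of these. For ZT17 against ZT05 in Deficient mice 2 of 12 and in Control mice 16 of 29 calls passed in all, and for the time difference of the response 0 of 6. No value changed direction. Scaling by DESeq2 size factors or keeping mitochondrial and rRNA-like genes moved the median of all genes by at most 0.0588 on the log2 scale. The male liver and male brown adipose tissue libraries were shallow (lowest at 396892 and 332749 counts) once mitochondrial and rRNA-like counts were set aside, so members below a few CPM could not be measured there, and no time comparison had more than 3 libraries a side. The cause of the changes below was not tested.

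With both sexes in one fit, calls in female kidney fell to 0 lower, in female liver to 7 higher and 5 lower, and in male liver they came to 7 higher and 4 lower; by time they came to 6 pairs in Deficient and 21 in Control females and 5 in Deficient and 15 in Control males, and for the time difference to 1 in females and 10 in males. DESeq2 called 18 members higher in female liver, 4 lower in male liver, 29 pairs by time in Deficient females, 7 in Deficient and 13 in Control males, 14 time differences in females and 7 in males, and 3 sex differences in liver. Without an expression filter there were 18 higher members in female liver, 4 lower in male liver, 24 lower pairs in males, 22 pairs by time in Deficient females, 14 in Deficient and 23 in Control males, 16 time differences in either sex, 14 sex differences in kidney and 2 in liver. The stricter filter gave 5 time differences in females. With TMM over all libraries, ovary was the highest tissue of 1 member in females; with mitochondrial and rRNA-like genes kept, kidney was highest for 22 and liver for 14 members in males.

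The mean residual correlation of same-numbered replicates ran from -0.105 to 0.219 by tissue and sex, so the numbers were not taken as pairs. It was highest in male gastrocnemius, at 0.219 against -0.108 for other numbers. Female adrenal gland had 0.196 against -0.0975. With the replicate number as a block, 0 members were called lower in female kidney and 1 pair by time in Deficient males, and the other counts stayed within 1.5 times.

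Leaving out 1 library gave 51 to 76 higher and 13 to 25 lower pairs in females, with 14 without Control ZT17 replicate 1 or Deficient ZT17 replicate 3 and 13 without Deficient ZT05 replicate 2 or Deficient ZT17 replicate 1. Males had 26 to 37 higher and 10 to 15 lower pairs. Female kidney had 6 to 10 higher and 0 to 3 lower members, female liver 8 to 19 higher and 5 to 10 lower, male kidney 11 to 14 higher and 8 to 9 lower, and male liver 2 to 5 higher and 2 to 4 lower. By time there were 6 to 14 pairs in Deficient females (6 without ZT17 replicate 1 and 7 without ZT05 replicate 2), 20 to 36 in Control females (20 without ZT17 replicate 2), 0 to 2 in Deficient males and 4 to 11 in Control males (11 without ZT17 replicate 1). Time differences numbered 0 to 4 in either sex. Members that differed between Control females and Control males numbered 30 to 33 in kidney and 33 to 37 in liver, and sex differences of the response 6 to 11 in kidney and 0 to 0 in liver.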

Other observations

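Some of the listed phase I genes rose in male kidney and liver. Cyp4a14, a fatty acid hydroxylase of the peroxisome proliferator pathway, averaged 156 ± 230.1 CPM in Deficient and 4.82 ± 2.14 CPM in Control male kidneys (SD, n = 6), a log2 fold change of 4.83 ± 0.97. In liver its log2 fold change was 1.77 ± 0.34 in females and 4.17 ± 0.90 in males. Cyp2b9, known as a female-typical enzyme of mouse liver, averaged 354 ± 285 CPM in Deficient and 10.8 ± 15.4 CPM in Control male livers, at 5.05 ± 1.10. In uterus the cystine transporter gene Slc7a11 rose by 1.90 ± 0.32 and the glutathione reductase gene Gsr changed by -1.70 ± 0.17.

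A few libraries held members beside markers of another organ. The female adrenal library Deficient ZT17 replicate 1 had 170.3 CPM of Gsta2, 72.7 CPM of Ugt3a2 and 54.7 CPM of Ugt1a2, and the proximal tubule markers of that group reached a summed level of 944 CPM against a median of 4.91 CPM. In Deficient male gastrocnemius tendon the summed hepatocyte markers reached 37390 CPM in the highest library.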
